A study of Homo sapiens with 5 samples.

Results

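The broad promoter hotspots are regions of open chromatin in MCF10A cells, an immortalized, non-tumorigenic human mammary epithelial line, that are at least 1500 bp wide and lie at the start of a protein-coding gene. They were selected on width and position from the single list of hotspots called on the pooled ATAC-seq reads. A hotspot was a promoter hotspot when it overlapped the 1000 bp on either side of a protein-coding transcription start site (TSS) of GENCODE release 44. It was termed unidirectional when all such TSSs lay on the same strand. Of 181723 hotspots, 174422 lay on autosomes and 17309 of these were unidirectional promoter hotspots. The 1868 with a width of 1500 bp or more (10.8%, Wilson 95% interval 10.3 to 11.3) are described here, and 347 hotspots of that width with TSSs on both strands were left out. The 1868 broad hotspots overlapped the promoters of 1882 of 18773 autosomal protein-coding genes (10.0%), or 13.2% of the 14237 genes with any promoter hotspot.

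The hotspots came from 5 libraries of 1 group, MCF10a, whose cells grew in 5% horse serum with EGF (20 ng/ml), hydrocortisone (0.5 µg/ml), cholera toxin (100 ng/ml) and insulin (10 µg/ml). All libraries analysed here belong to this group, so there was no control group to set them against. The libraries were pooled before the hotspots were called, so no value has a replicate error, the depth is unknown and no test was run. Intervals of shares and medians are 95% intervals over hotspots or genes and cover counting error only. The score is the value in the deposited list, which stems from the same reads as the width and is given as a description.

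Active promoters keep a stretch of DNA free of nucleosomes where RNA polymerase and general factors assemble. Many lie in CpG islands, runs of GC-rich DNA that are rich in CpG dinucleotides and usually unmethylated. Immediate early genes are switched on within minutes of a growth factor such as EGF, through serum response elements and cAMP response elements in their promoters, and have short transcription units.

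Bases just before the TSS are shown for 6 of the widest broad hotspots, to set their promoter motifs side by side. Each run holds the 200 bases before the canonical TSS, 5′ to 3′ on the strand of the gene and outside the canonical transcript. The regions in hg38 are chr5:172771196-172771395, reverse strand (DUSP1), chr5:138465279-138465478, forward strand (EGR1), chr2:43226607-43226806, reverse strand (ZFP36L2), chr20:63739576-63739775, forward strand (SLC2A4RG), chr15:98648339-98648538, forward strand (IGF1R) and chr3:4979237-4979436, forward strand (BHLHE40). Capitals mark matches, on either strand, to the GC box CCGCCC, the CCAAT box, the cAMP response element TGACGTCA, the TATA box TATAAA or the serum response element.
DUSP1: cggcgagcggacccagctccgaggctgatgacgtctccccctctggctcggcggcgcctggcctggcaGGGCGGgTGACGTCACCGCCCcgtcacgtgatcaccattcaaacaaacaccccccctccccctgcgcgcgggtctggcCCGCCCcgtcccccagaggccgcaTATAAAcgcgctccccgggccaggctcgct
EGR1: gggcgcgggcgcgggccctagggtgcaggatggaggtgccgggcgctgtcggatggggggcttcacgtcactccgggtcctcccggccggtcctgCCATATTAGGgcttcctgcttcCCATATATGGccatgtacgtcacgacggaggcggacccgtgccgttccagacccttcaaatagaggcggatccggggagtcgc
ZFP36L2: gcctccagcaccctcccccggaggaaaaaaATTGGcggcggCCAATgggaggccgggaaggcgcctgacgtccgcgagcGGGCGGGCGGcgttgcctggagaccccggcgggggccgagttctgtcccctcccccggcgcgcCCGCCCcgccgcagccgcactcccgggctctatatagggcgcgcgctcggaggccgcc
SLC2A4RG: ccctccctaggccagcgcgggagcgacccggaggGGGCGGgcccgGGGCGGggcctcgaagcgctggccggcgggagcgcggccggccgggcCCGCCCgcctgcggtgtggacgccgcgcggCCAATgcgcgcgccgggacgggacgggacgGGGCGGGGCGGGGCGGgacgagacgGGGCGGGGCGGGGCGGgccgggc
IGF1R: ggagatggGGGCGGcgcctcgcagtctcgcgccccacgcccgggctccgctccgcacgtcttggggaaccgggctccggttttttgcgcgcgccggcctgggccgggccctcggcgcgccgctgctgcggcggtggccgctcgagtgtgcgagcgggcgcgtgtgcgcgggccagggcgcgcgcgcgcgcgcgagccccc
BHLHE40: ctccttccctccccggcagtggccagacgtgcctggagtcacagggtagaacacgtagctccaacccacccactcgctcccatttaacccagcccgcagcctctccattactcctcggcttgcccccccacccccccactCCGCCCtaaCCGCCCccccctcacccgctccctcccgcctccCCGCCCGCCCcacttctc
DUSP1, which encodes a phosphatase of MAP kinases, has 3 GC boxes, a cAMP response element at -125 to -118 and a TATA box at -30 to -25, counted from the TSS. EGR1, an immediate early zinc finger factor, has serum response elements at -105 to -96 and -83 to -74. In ZFP36L2, which encodes an mRNA decay factor, a pair of CCAAT boxes and 3 GC boxes matched. SLC2A4RG, named as a regulator of a glucose transporter gene, had 9 GC boxes and 1 CCAAT box. The IGF1R promoter, of the receptor of insulin-like growth factor, had 1 GC box and none of the other motifs, and that of BHLHE40, a transcriptional repressor, had 4 GC boxes.

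The broad hotspots had a median width of 1810 bp (interval 1785 to 1829) and reached 5188 bp. They made up 1.07% of autosomal hotspots and 5.49% of the bases in them. Most were close to the threshold, since 547 were 2000 bp or wider and 76 were 3000 bp or wider. Just inside it were HNRNPF, MAGI1, CIC and FAM76A at 1500 bp, with scores of 17.1, 30.8, 38.9 and 54.7, and DCTD at 1501 bp, with a score of 20.3. Just outside were SMAD5 at 1499 bp (score 26.7), PPM1K and CEP350 at 1498 bp (scores 39.5 and 27.0) and G3BP2 and RABGAP1L at 1497 bp (scores 36.8 and 36.1). The widths were not spread evenly. In bins of 25 bp, unidirectional promoter hotspots had 8 maxima of width from 325 to 2474 bp, spaced by 304 bp on average (300 to 325). The maxima that fall among the broad hotspots were at 1550 to 1574 bp (133 hotspots), 1850 to 1874 bp (92), 2150 to 2174 bp (45) and 2450 to 2474 bp (19). Between them the lowest bins held 36 hotspots (1700 to 1724 bp), 13 (2025 to 2049 bp) and 4 (2375 to 2399 bp). The bin just below the threshold, 1475 to 1499 bp, was the minimum just before the first of these maxima, with 63 hotspots.

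The median score of the broad hotspots was 29.7 (interval 29.1 to 30.4). It exceeded the score of 96.8% of the hotspots in the list, and single scores ran from 6.07 to 125. Narrower unidirectional promoter hotspots had a median of 9.71 (9.37 to 9.93), and the 8930 of them that hold their TSS one of 18.4 (18.1 to 18.8). Just below the threshold, at 1000 to 1499 bp, those that hold their TSS had a median of 26.6 (25.9 to 27.0). Single scores of narrower hotspots reached 349. The 935 hotspots of 1500 bp or more away from promoters had a median score of 21.4, and the 347 broad hotspots with TSSs on both strands one of 33.5 (31.9 to 34.5). Among the 1868 broad hotspots themselves, Spearman's rho between width and score was 0.07. GNAS, the widest, scored 25.4, below the median of all 1868. The 10 highest scores lay at FARP2 (125), TAF11L3 (109), PDE4DIP (85.1), EEF2KMT (81.5), TMEM87B (76.2), ANKRD36C (75.3), TBC1D28 (74.3), FAM86B2 (73.3), FAM86B1 (69.9) and KAT6B (67.3). In the first 9 of these, 7.99% to 82.3% of the 75-mers of the hotspot occur elsewhere in hg38, against 0% at KAT6B, which encodes a histone acetyltransferase. Copies of at least 1% of the 75-mers were found in 135 of the 1868 (7.23%, 6.14 to 8.49) and in 13 of the 19 with a score of 60 or more. The part of duplicated sequence in these scores was not tested. Without the 135, the median score was 29.7 and the highest 67.3. The lowest scores were 6.07 at ZFTA, 7.12 at TRIL and 7.34 at GRM6, and 28 were under 10.

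**Figure D1:**
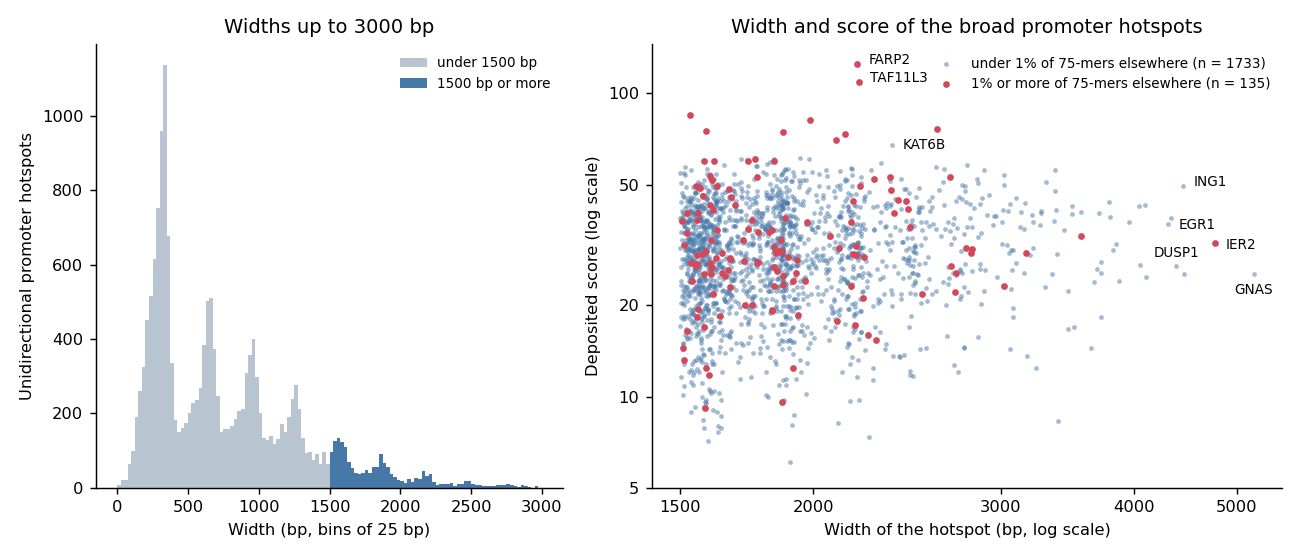
Left, number of unidirectional promoter hotspots in bins of 25 bp of width up to 3000 bp, grey below and blue from 1500 bp. Right, width against the deposited score (both axes logarithmic) of the 1868 broad promoter hotspots, in red the 135 with at least 1% of their 75-mers elsewhere in hg38. The widths bunch at maxima spaced by 304 bp on average, the widest hotspots have middling scores, and red points are frequent at the top.

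GNAS (chromosome 20, 58887703 to 58892890), which encodes the stimulatory G protein subunit that cholera toxin modifies, had the widest of the 1868, at 5188 bp, with 3718 bp before its canonical TSS. IER2 (chromosome 19, 13151421 to 13156187), an immediate early gene, followed with 4767 bp and a score of 32.0. Its hotspot did not cover the canonical TSS, which lay in a separate hotspot of 943 bp (score 16.0), but an annotated TSS 1564 bp further on. From there it ran 4212 bp downstream and 1276 bp past the end of the canonical transcript. ADM, which encodes the peptide hormone adrenomedullin, had 4462 bp (score 25.3), and ING1, a reader of histone methylation, 4448 bp (score 49.4). The hotspot of DUSP1 was 4387 bp wide (score 26.9) and covered 89.4% of its canonical transcript. At EGR1 it was 4305 bp (score 37.1) with 67.9% of the transcript. SPACA6, SLC2A4RG, RUSC1, RNASE4 and CPEB2 had between 4043 and 4333 bp.

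Among the next widest were ZFP36L2 (3963 bp, score 37.6) and IGF1R (3854 bp, score 31.9). FKBP5, a co-chaperone of the glucocorticoid receptor, had 3872 bp (score 24.1) on an upstream TSS, 39668 bp from the canonical TSS, and a second broad hotspot of 1563 bp (score 34.6) on the latter. NR3C1, the glucocorticoid receptor itself, had 3800 bp (score 39.1). BHLHE40 (3796 bp, score 43.7), TFAP2C, the factor AP-2 gamma (3731 bp, score 25.5), MAZ, a zinc finger factor of GC-rich promoters (3730 bp, score 27.7), and FOSB, a subunit of AP-1 (3730 bp, score 18.3), closed the 20 widest together with MTCL1 (3827 bp, score 30.5).

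**Figure D2:**
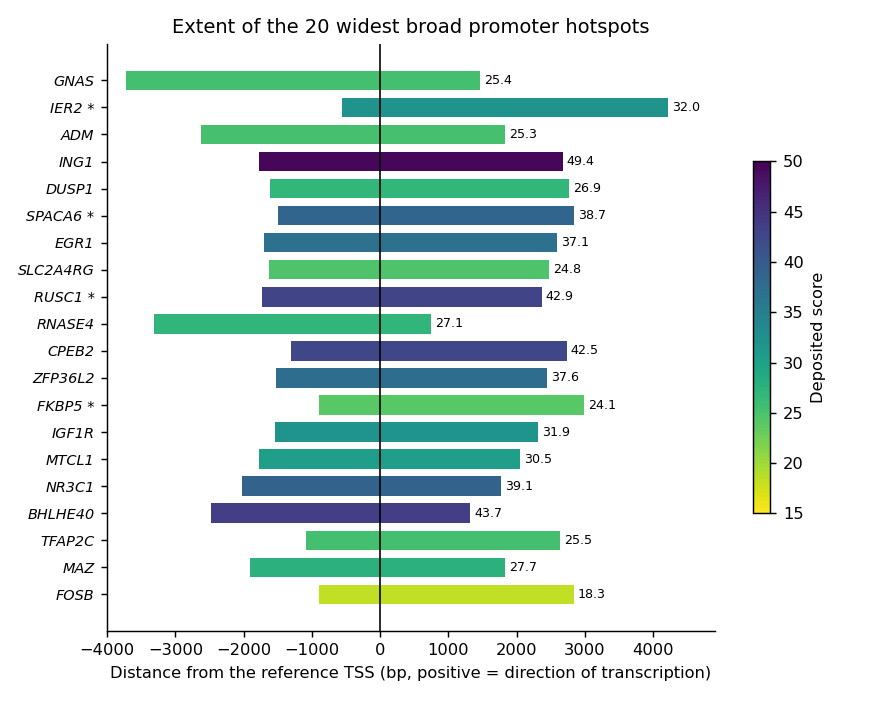
Extent of the 20 widest broad promoter hotspots in bp from the reference TSS (x axis, positive in the direction of transcription), coloured and labelled by the deposited score. Asterisks mark genes whose hotspot lies on a TSS other than the canonical one. GNAS and RNASE4 reach more than 3000 bp upstream, and IER2 reaches 4212 bp downstream.

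Each broad hotspot was set against 1 reference TSS, the canonical one where it lay within 1000 bp, otherwise the annotated TSS nearest to the midpoint. The reference TSS lay inside 1798 of the 1868 (96.3%, 95.3 to 97.0). Narrower unidirectional promoter hotspots held theirs in 57.8% (57.1 to 58.6). A hotspot chosen for its width spans a nearby TSS more readily, so this difference follows in part from the selection. Of the 70 without it, 40 lay downstream and 30 upstream of it. A reach further downstream than upstream was found in 1121 of the 1798 (62.3%, 60.1 to 64.6), with a median of 1012 bp (981 to 1036) downstream and 796 bp (771 to 817) upstream. In narrower hotspots with their TSS the share was 55.9% (54.9 to 56.9), with medians of 402 and 342 bp. By width it was 39.9% (37.8 to 42.2) under 500 bp, 57.4% (56.0 to 58.9) at 500 to 999 bp and 64.7% (62.9 to 66.5) at 1000 to 1499 bp, the class just below the threshold. Broad hotspots with TSSs on both strands were nearly even, at 51.7% (46.5 to 57.0). Position +1000 was covered by 51.1% (48.7 to 53.4) and position -1000 by 29.4% (27.4 to 31.6) of these 1798. In the 76 of 3000 bp or more the medians were 2238 bp downstream (1824 to 2480) and 1322 bp upstream (900 to 1708). Lying almost wholly downstream was the hotspot of KEAP1, the sensor of oxidative stress, with 8 bp before and 1533 bp after the TSS (score 24.1), followed by SEPTIN9, ZNF395 and PARP8. Lying almost wholly upstream was that of EFNA5, an ephrin ligand, with 3039 bp before and 1 bp after (score 31.6), followed by ZBTB47, ATXN1, BCKDK and LRFN4. Upstream and downstream reach ran against each other (Spearman's rho -0.62 over the 1798), as they must in part at a given width.

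**Figure D3:**
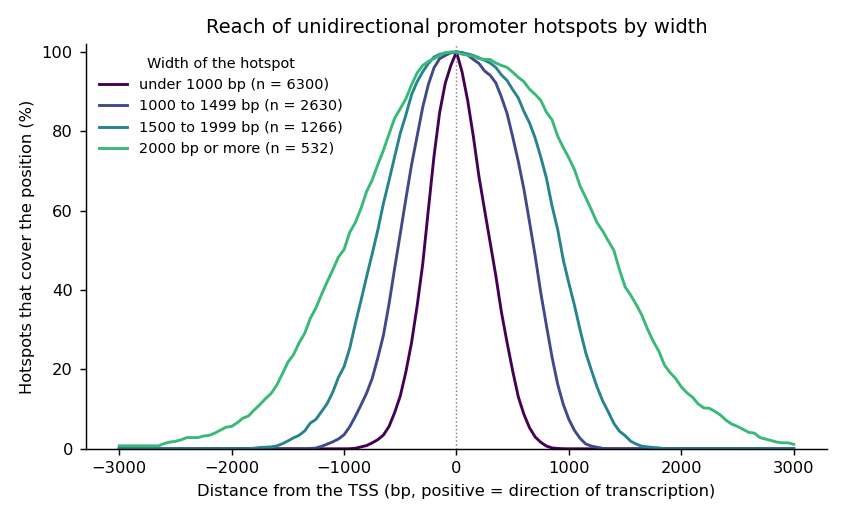
Share of unidirectional promoter hotspots that cover each position around the reference TSS (x axis in bp, positive in the direction of transcription), by width of the hotspot, for hotspots that hold their TSS. The curves for 1000 bp or more fall more slowly downstream than upstream, and those for 1500 bp or more are still above 40% at +1000.

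By canonical transcript, 44.3% of the bases in broad hotspots lay before the TSS, 16.5% in the first exon, 31.8% in the first intron and 7.03% further inside the gene. The canonical transcripts had a median length of 36234 bp (33260 to 39121). In the 76 hotspots of 3000 bp or more that hold their TSS it was 10100 bp (6036 to 19772), against 38782 bp (32739 to 46729) in the 456 of 2000 to 2999 bp. Transcripts under 5000 bp were found at 31.6% (22.2 to 42.7) of the former and 12.5% (9.77 to 15.9) of the latter. At least 50% of the canonical transcript lay inside the hotspot in 85 of the 1868 (4.55%, 3.69 to 5.59), and the whole of it in 10. These were COMTD1, with a hotspot of 3502 bp over a transcript of 2317 bp, JUND, a subunit of AP-1 (3015 bp over 1929 bp), the histone genes H2BC5, H1-10 and H4C16, the exonuclease gene TREX1 (2447 bp over 1416 bp), the stress response gene GADD45G (2416 bp over 1544 bp), PHLDA2, C19orf33 and MIF, which encodes a cytokine (1794 bp over 841 bp).

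Some genes had several broad hotspots. Of 30 genes with more than 1, TFAP2A, SEPTIN9 and CTDSP1 had 3. At TFAP2A, the factor AP-2 alpha, they lay on 3 alternative TSSs, with widths of 1941, 1754 and 1584 bp and scores of 19.7, 33.2 and 21.4. MYC had 1 of 1807 bp over its canonical TSS (score 25.6) and 1 of 2210 bp that began 681 bp downstream of it (score 15.5). JUNB, a subunit of AP-1, had 1 of 1858 bp over the TSS (score 27.2) and 1 of 1609 bp that ended 829 bp upstream of it (score 27.8). The interferon response factor gene IRF1 had 3100 bp on an upstream TSS and 1843 bp on the canonical one, with scores of 27.5 and 31.8.

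The DNA under the broad hotspots was CpG-rich over a long stretch, a property of the genome sequence that the selection did not use. The ratio of observed to expected CpG within 500 bp of the TSS had a median of 0.841 (0.835 to 0.848). It was 0.756 (0.752 to 0.760) for narrower hotspots with their TSS, and 0.816 (0.811 to 0.823) for those of 1000 to 1499 bp. For broad ones with TSSs on both strands it was 0.823 (0.807 to 0.838), and over the promoters of all 18773 genes 0.731 (0.726 to 0.734). Promoters of the 4536 genes with no hotspot had a median of 0.299 (0.290 to 0.310). A CpG island was defined by windows of 200 bp with at least 50% GC and a ratio of at least 0.6. In the broad hotspots the TSS lay in such an island in 95.7% (94.7 to 96.5), against 96.0% (95.2 to 96.7) at 1000 to 1499 bp and 83.6% (82.8 to 84.4) in all narrower hotspots with their TSS. The run of island around it had a median of 1660 bp (1630 to 1680). In broad hotspots with TSSs on both strands the run was similar, at 1610 bp (1530 to 1710). In narrower hotspots with their TSS the run was 1030 bp (1010 to 1040), and in those of 1000 to 1499 bp it was 1280 bp (1260 to 1300). By width, the run was 1600 bp (1550 to 1640) at 1500 to 1999 bp, 1920 bp (1830 to 2010) at 2000 to 2999 bp and 2385 bp (1600 to 3160) from 3000 bp. Spearman's rho between width and run length was 0.25 over the 1868. FKBP5 and IRF1 were among the exceptions, with no island at the upstream TSS of their widest hotspot.

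Motifs were counted from 250 bases before to 50 after the reference TSS on both strands. The GC box, the site of SP and KLF factors, was present in 84.0% (82.3 to 85.6) of the broad hotspots, in 68.6% (67.6 to 69.5) of narrower ones with their TSS and in 62.0% of all promoters. Within the narrower ones it was present in 45.6% (43.4 to 47.9) under 500 bp and in 81.0% (79.5 to 82.5) at 1000 to 1499 bp. The ETS site CCGGAAG was present in 11.2% (9.89 to 12.8), 17.6% (16.9 to 18.5) and 14.1%, in the same order. Along the width classes the share with an ETS site was 20.7% (19.5 to 21.9) at 500 to 999 bp, 17.8% (16.3 to 19.3) at 1000 to 1499 bp, 13.3% (11.5 to 15.3) at 1500 to 1999 bp and 7.46% (5.38 to 10.2) at 2000 to 2999 bp. From 3000 bp it was 6.58% (2.84 to 14.5), and below 500 bp 10.5% (9.15 to 11.9). The TATA box was present in 4.42% (3.42 to 5.70) at 1500 to 1999 bp, in 8.77% (6.51 to 11.7) at 2000 to 2999 bp and in 9.21% (4.53 to 17.8) from 3000 bp. Its share was 5.94% (4.96 to 7.11) over all 1868, 9.71% (8.45 to 11.1) in hotspots under 500 bp and 9.68% of all promoters. The sites of NRF1 (GCATGCGC) and YY1 (AAGATGGC) were present in 4.55% (3.69 to 5.59) and 3.69% (2.93 to 4.65) of broad hotspots, against 4.19% and 4.07% of all promoters. Hotspots of 1000 to 1499 bp with their TSS had them in 6.39% (5.52 to 7.39) and 5.59% (4.77 to 6.53). In broad hotspots with TSSs on both strands the shares were 8.36% (5.88 to 11.7) and 6.34% (4.22 to 9.41). A match to AGGGGGC, part of the CTCF site, was present in 26.1% (24.1 to 28.1) against 18.9% of all promoters. Hotspots of 1000 to 1499 bp with their TSS had it in 23.3%, and broad hotspots with TSSs on both strands in 24.2%. The intervals of both shares overlap 24.1 to 28.1. The CCAAT box (36.3% against 35.8%), the cAMP response element (2.84% against 2.75%) and the serum response element (1.28% against 1.22%) were close to their share of all promoters, and the E-box CACGTG stood at 10.7% (9.33 to 12.1) against 8.68%. At 1000 to 1499 bp the cAMP response element was present in 4.18% (3.48 to 5.02) and the E-box in 10.6% (9.49 to 11.8). Base composition differs between these sets, and its part in the shares was not tested.

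AP-1 sites (TGACTCA or TGAGTCA) were sparse at the TSS of broad hotspots, present in 2.62% (1.99 to 3.45) of them against 3.52% of all promoters. Over the whole hotspot there were 506 sites, or 0.140 per kb, against 0.474 per kb in all distal hotspots and 0.234 per kb in distal hotspots of 1500 bp or more. Other promoter hotspots were also low, with 0.134 per kb in broad ones with TSSs on both strands and 0.180 per kb in narrower unidirectional ones. Within broad hotspots, the 500 bp on either side of the TSS held 0.092 per kb (160 sites) and the outer part 0.185 per kb (346 sites). GC boxes ran the other way, with 6.62 per kb near the TSS and 3.20 per kb in the outer part. Hotspots of 1000 to 1499 bp with their TSS had the same order. They held 0.091 AP-1 sites per kb near the TSS and 0.160 in the outer part, and 5.60 and 2.55 GC boxes per kb.

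**Figure D4:**
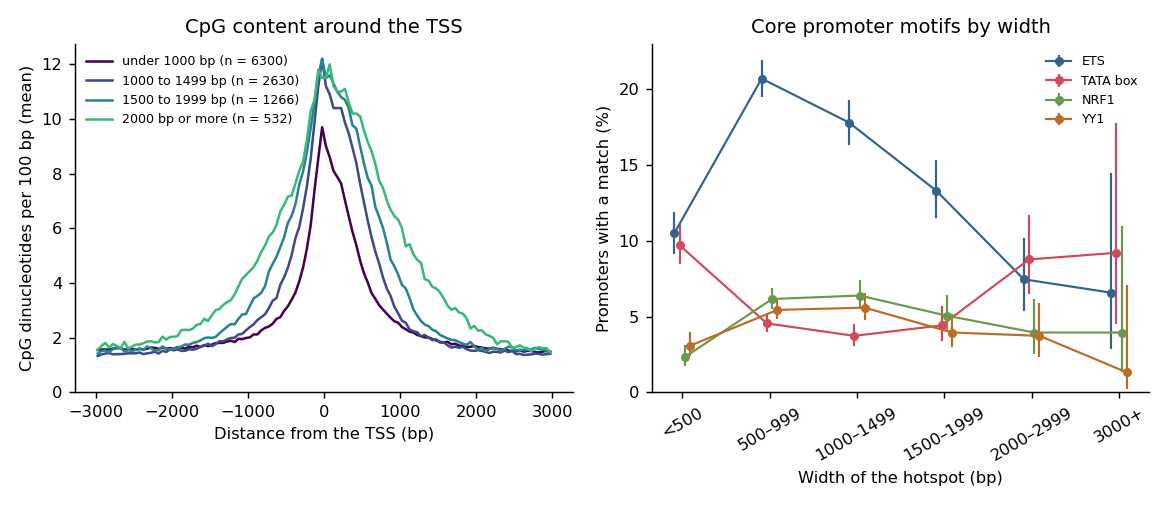
Left, mean number of CpG dinucleotides per 100 bp around the reference TSS for unidirectional promoter hotspots by width. Right, share of these promoters with a match to each motif by width class (points; bars are Wilson 95% intervals). CpG content spreads further on both sides with width, and the ETS share is 20.7% at 500 to 999 bp and 7.46% at 2000 to 2999 bp.

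A TSS of a long noncoding RNA on the opposite strand lay within 1000 bp of the reference TSS in 604 broad hotspots (32.3%, 30.3 to 34.5). The share was 18.9% (18.1 to 19.7) in narrower hotspots with their TSS and 26.8% (25.1 to 28.5) at 1000 to 1499 bp. DUSP1, EGR1, ZFP36L2 and BHLHE40 were among the 604. In broad hotspots with protein-coding TSSs on both strands it was 3.46% (1.99 to 5.95). Those were set apart by a protein-coding TSS on the opposite strand, which the unidirectional ones lack by selection. The difference between these 2 sets thus follows in part from the selection. The median number of distal hotspots within 50 kb was 8 (7 to 8) at broad and 7 at narrower hotspots. Broad hotspots made up 13.4% (10.9 to 16.3) of the unidirectional promoter hotspots of chromosome 20 and 15.4% (12.7 to 18.6) of those of chromosome 5 beyond 120 Mb, against 10.5% (10.1 to 11) elsewhere. Other chromosomes had shares as high, with 15.1% (11.4 to 19.8) on chromosome 13, 14.7% (11 to 19.3) on chromosome 18 and 13.8% (11.3 to 16.7) on chromosome 4. Both regions were set apart for copy number, which was not measured here. Without them, 1700 broad hotspots remained, with a median width of 1808 bp, a largest width of 4767 bp and a median score of 29.7. Of the 20 widest, GNAS, SLC2A4RG and TFAP2C lie on chromosome 20, and DUSP1, EGR1 and NR3C1 on chromosome 5 beyond 120 Mb.

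Genes were then read by list, each beside the 10.0% of all genes. Median widths of the widest promoter hotspot cover only genes that have one, with 940 bp over all 14237 such genes. The lists are small and were chosen with results of these data known, so their counts are descriptions. Of 22 AP-1 and immediate early genes, 14 had a broad hotspot (63.6%, 43.0 to 80.3), with a median of 1899 bp for the widest promoter hotspot. Besides IER2, EGR1 and FOSB they included JUN (3501 bp, score 42.5), JUND (3015 bp, score 41.1), ATF3 (2514 bp, score 48.7), FOSL2 (2167 bp, score 39.8) and FOS (1823 bp, score 26.5). EGR2 stood at 1348 bp, FOSL1 at 830 bp, EGR3 at 347 bp and BATF, a partner of JUN in immune cells, at 303 bp, while EGR4 had no promoter hotspot. Negative feedback genes of the ERK pathway followed with 10 of 16 (62.5%, 38.6 to 81.5). After DUSP1 came DUSP4 (3010 bp, score 31.8), which like DUSP6 (2492 bp, score 24.0) dephosphorylates ERK, and SPRY4 (2746 bp, score 20.9), an inhibitor of receptor signalling. SPRY1 stood at 909 bp, DUSP2 at 823 bp, SPRED2 at 813 bp, DUSP16 at 644 bp and DUSP8 at 419 bp. SPRED3 had 1556 bp with TSSs on both strands. Of 13 EGF family receptors and ligands 6 had one (46.2%, 23.2 to 70.9). These were EGFR (2672 bp, score 15.8), the ligand genes HBEGF (2492 bp, score 23.6), TGFA (1916 bp, score 39.5), NRG1 (1667 bp, score 15.8) and NRG2 (1876 bp, score 9.77), and the receptor gene ERBB3 (2223 bp, score 29.6). AREG stood at 771 bp and ERBB2 at 726 bp.

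Of 19 genes of the glucocorticoid and cAMP response, 9 had a broad hotspot (47.4%, 27.3 to 68.3). Besides FKBP5 and NR3C1 they included the metallothionein gene MT2A (3302 bp, score 22.9), CEBPB (2857 bp, score 33.7), ZFP36 (2150 bp, score 21.4) and CREB1 (1846 bp, score 45.8), the factor that binds the cAMP response element. PER1, SGK1, NR4A2 and NR4A3 stood just under the threshold, between 1338 and 1403 bp. The Hippo pathway and its targets had 8 of 14 (57.1%, 32.6 to 78.6), with the target CCN1 (3070 bp, score 30.4) and the coactivators YAP1 (2503 bp, score 25.4) and WWTR1 (1857 bp, score 26.3), while the target CCN2 stood at 1064 bp. The KLF and SP factors, which bind the GC box, had 14 of 25 (56.0%, 37.1 to 73.3), led by KLF10 (3164 bp, score 43.4), KLF13 (3157 bp, score 35.7), SP3 (2712 bp, score 38.7) and KLF4 (2495 bp, score 29.7). KLF1 stood at 273 bp.

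Chromatin regulators had 29 of 68 (42.6%, 31.6 to 54.5), among them the histone demethylase gene KDM6B (3389 bp, score 29.4), SMARCA2, an ATPase of the SWI/SNF complex (3373 bp, score 56.0), and EZH2 (1870 bp, score 42.8). Epithelial and mammary regulators had 8 of 24 (33.3%, 18.0 to 53.3), among them RUNX1 (2473 bp, score 37.2), ELF3 (2148 bp, score 34.3) and GATA3 (1975 bp, score 33.1). Splicing and RNA-binding factors had 11 of 33 (33.3%, 19.8 to 50.4) and heat shock and chaperone genes 8 of 21 (38.1%, 20.8 to 59.1). Cell cycle drivers and inhibitors had 5 of 20 (25%, 11.2 to 46.9), including the inhibitor CDKN1A (2821 bp, score 25.9). Forkhead factors had 12 of 49 (24.5%, 14.6 to 38.1). Of 42 homeobox regulators outside the HOX clusters 9 had one (21.4%, 11.7 to 35.9), with IRX3, IRX2 and IRX5 over 3000 bp. Integrins and laminins had 7 of 39 (17.9%, 8.98 to 32.7), led by LAMA5 (3076 bp, score 26.2).

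The interval held the 10.0% of all genes for integrins and laminins and also for SOX factors (2 of 18), replication-dependent histones (8 of 71), zinc finger genes of chromosome 19 (22 of 240), HOX genes (2 of 39), collagens (1 of 42) and proteasome subunits (1 of 38). Another 15 histone genes had a hotspot of 1500 bp or more with TSSs on both strands, and with these kept the share was 32.4% (22.7 to 43.9). Without hotspots with copies, the share of the zinc finger genes was 5.83%. None of 76 ribosomal protein genes had one (upper limit 4.81%), although 75 had a promoter hotspot. The widest at each had a median of 927 bp and a median score of 22.3, against 20.3 over all genes with a promoter hotspot. Of the ribosomal protein genes, 5 had a hotspot of 1500 bp or more with TSSs on both strands. Nuclear genes of oxidative phosphorylation had 2 of 91 (2.20%, 0.605 to 7.66), ATP5IF1 (1682 bp) and UQCR11 (1564 bp), with a median of 781 bp for the widest and a median score of 23 at it. Another 6 had a hotspot of that width with TSSs on both strands, and with these kept the share was 8.79% (4.52 to 16.4). The housekeeping list, which also holds the ribosomal protein gene RPLP0, had 8 of 18 (44.4%, 24.6 to 66.3). Among the 8 were YWHAZ (3381 bp, score 41.2), GAPDH (2973 bp, score 24.8) and ACTB (1838 bp, score 23.2). No olfactory receptor gene had one (0 of 390, upper limit 0.975%).

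The cell type of the label was read from marker genes. Of 20 basal mammary markers, 18 had a promoter hotspot and 8 a broad one (40.0%, 21.9 to 61.3), while KRT14, a basal keratin, and TP63, a regulator of basal epithelium, had no promoter hotspot. A promoter hotspot of any width was present at 75.8% of all genes. It was present at 16 of 20 luminal, 14 of 16 mesenchymal, 11 of 13 neuronal, 7 of 14 immune and 3 of 12 hepatocyte markers. KRT5 (3217 bp, score 30.8) was the only one of 55 keratin genes with a broad unidirectional hotspot (1.82%, 0.322 to 9.61), although 18 had a promoter hotspot. SFN (2485 bp, score 36.5), ITGA6 (1862 bp, score 35.3) and CDH3 (1721 bp, score 20.1) were other basal markers with one. Luminal markers had 3 of 20 (15%, 5.24 to 36.0). The luminal keratin genes KRT8 and KRT18, at 1921 bp (score 22.4), and FOXA1, at 2226 bp (score 18.4), were left out only because their hotspots have TSSs on both strands. With both strands kept, the share was 30.0% (14.5 to 51.9) of luminal, 40.0% (21.9 to 61.3) of basal markers and 5.45% (1.87 to 14.9) of keratin genes. Mesenchymal markers had 1 of 16 (6.25%, 1.11 to 28.3), neuronal markers 2 of 13 (15.4%, 4.33 to 42.2) and hepatocyte markers 0 of 12 (upper limit 24.2%). Immune markers had 2 of 14 (14.3%, 4.01 to 39.9), CD14 (1903 bp, score 16.5) and CSF1R (1745 bp, score 15.7), both on chromosome 5 beyond 120 Mb.

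**Figure D5:**
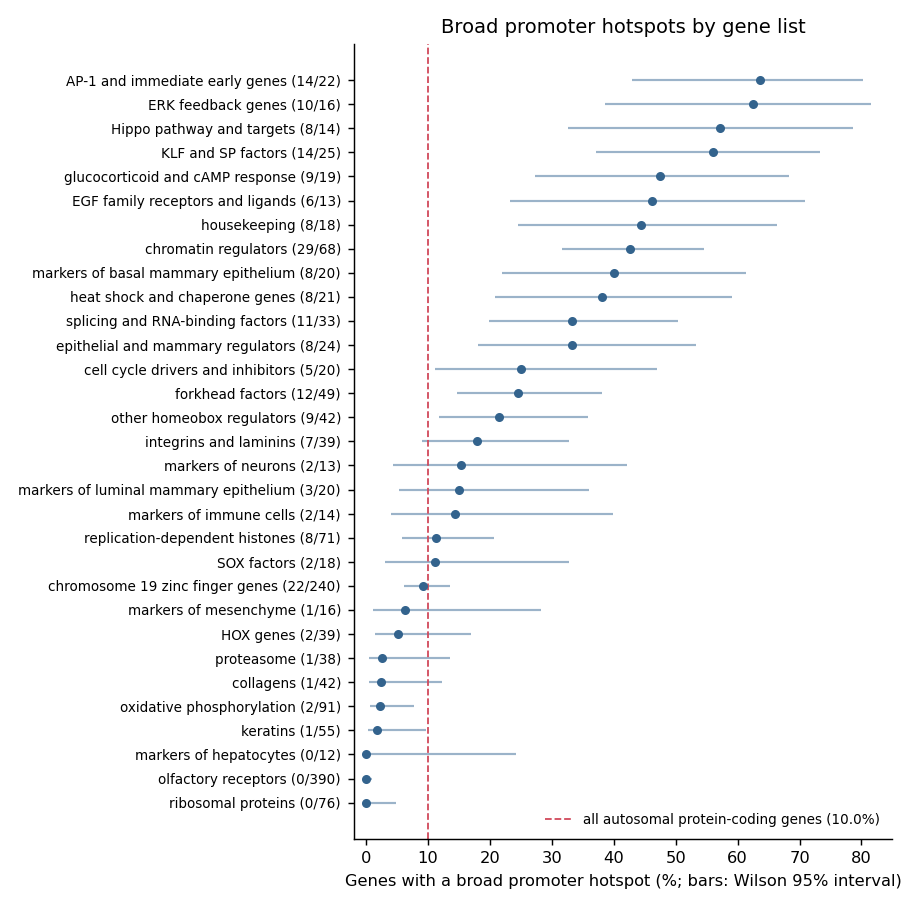
Genes with a broad promoter hotspot as a share of their list (x axis in percent; points; bars are Wilson 95% intervals; counts in brackets) and the 10.0% of all autosomal protein-coding genes (dashed line). The AP-1 and immediate early genes stand at 63.6% and the ribosomal protein and olfactory receptor genes at 0%.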

How the data were processed

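The 5 ATAC-seq libraries of MCF10A cells carried replicate numbers of 1 group. Per the study's methods, the authors aligned paired reads to hg38 with Bowtie2, merged the libraries, removed duplicates and called hotspots with the Hotspot program at a false discovery rate of 0.01. The deposited list gives chromosome, start, end and a score per hotspot. The authors' score has no stated unit and is used as deposited, and neighbouring hotspots are at least 151 bp apart. Because the list is pooled, replicate spread and depth per library are unknown, and precision is limited to counting error over hotspots.

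Hotspots were joined to 75507 TSSs of transcripts typed protein-coding in GENCODE release 44 (18773 genes on 22 autosomes) in Python 3.11.15 with numpy 2.4.6, pandas 2.3.3, scipy 1.17.1, numba 0.67.0 and pysam 0.24.0. No hotspot ran beyond a chromosome end of hg38. Shares carry Wilson 95% intervals and medians exact binomial order-statistic intervals. Copies are 75-mers of a hotspot that occur elsewhere in hg38 on either strand. The joining, island, motif, copy and interval steps were tested on simulated data, where 20 checks passed. No test was run, for want of replicates.

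The members and lists were chosen with earlier results of these data known. Genes are named by rank of width, score, reach and list (the 20 widest, the 10 highest and 3 lowest scores, the 5 on each side of the threshold, up to 4 per list, and genes with several broad hotspots). Some genes that this rule names are not reported here. Other names, the narrow examples among them, were chosen after their values were seen. The TSS set of all transcripts, planned as the main set, became the alternative, since the rule names protein-coding TSSs. The serum response element was added after widths were seen. The repeat-masked share was not computed, because the genome used here carries no masking.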

Additional observations from a re-analysis of the deposited data

How the results depend on the processing

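In all, 38 values (the number, share, score, reach, CpG ratio and antisense share of the broad hotspots and the shares of the lists) were recomputed under 10 alternatives, and none of the 38 moved beyond its interval when the hotspot midpoint had to lie in the TSS window. The share of broad among unidirectional promoter hotspots was 12.8% with a TSS window of 500 bp and 13.7% with canonical TSSs only. It was 14.5% among hotspots with a score above the median. With TSSs of all transcripts, planned as the main set, it was 8.61% (as an alternative chosen after seeing the data). With genes on both strands kept it was 11.7%, the antisense share was 27.8%, and the shares were 13.7% of all genes, 51.5% of splicing factors, 6.58% of ribosomal protein genes, 8.79% of oxidative phosphorylation genes and 32.4% of histone genes. Without chromosome 20 and distal chromosome 5, 0% of immune markers remained. Without hotspots with copies (chosen after seeing the data), the shares were 10.0% of unidirectional promoter hotspots, 9.31% of all genes and 5.83% of chromosome 19 zinc finger genes.

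The threshold on width moved most. From 1000 bp there were 4671 hotspots (27.0%), with a score of 27.4, a CpG ratio of 0.825 and an antisense share of 28.6%. They covered 24.4% of all genes, 78.9% of glucocorticoid and cAMP genes, 42.9% of homeobox, 50% of cell cycle, 70.6% of chromatin, 66.7% of splicing, 61.9% of heat shock, 19.7% of ribosomal protein, 9.89% of oxidative phosphorylation, 28.3% of zinc finger, 33.3% of integrin and laminin, 10.9% of keratin and 66.7% of housekeeping genes and 37.5% of mesenchymal markers. From 2000 bp there were 547 (3.16%), with a score of 30.7 and an antisense share of 35.1%. They covered 3.01% of all genes, 37.5% of ERK feedback, 23.1% of EGF family, 21.4% of Hippo, 32.0% of KLF and SP, 10.2% of forkhead, 10.0% of cell cycle, 23.5% of chromatin, 15.2% of splicing, 9.52% of heat shock, 5.63% of histone, 0.833% of zinc finger and 16.7% of housekeeping genes, 15% of basal markers and 0% of HOX, oxidative phosphorylation, proteasome and collagen genes and of mesenchymal and immune markers. The alternative thresholds change which hotspots count, and the cause of the other shifts was not tested. No paired analysis was possible because the libraries form 1 group and were pooled.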

Other observations

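The bunching of widths was also present over all autosomal hotspots, with 8 maxima spaced by 311 bp on average (300 to 325). The bins at the maxima held 14228, 2625, 1010, 521, 238, 138, 72 and 28 hotspots, and the lowest bins between them 1774, 581, 246, 115, 61, 22 and 13. Distal hotspots reached a width of 11499 bp and a score of 912, both above the highest values of broad promoter hotspots (5188 bp and 125).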
